A study of Mus musculus with 11 samples.

Results

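The kidney collecting duct sets the final water, salt and acid content of urine, and 10 genes that carry out this work were followed by name in bulk RNA sequencing of whole mouse kidney. They were Aqp2, Aqp3 and Aqp4 (water channels), Avpr2 (the vasopressin receptor), Scnn1a, Scnn1b and Scnn1g (the subunits of the epithelial sodium channel, ENaC), Atp6v1g3 (a subunit of the proton pump), Slc4a1 (a chloride and bicarbonate exchanger) and Slc26a4 (pendrin). All 10 were present among the 25677 genes of the count table and passed the filter on low counts in every comparison. The Ctr group held kidneys of 3 female C57BL/6J mice, genotype C57B6 in the labels. The Lpr group held kidneys of 4 female MRL/lpr mice that were given no DNase I. MRL/lpr mice carry the lpr mutation of Fas and develop a disease like lupus, with nephritis. The DNase group held kidneys of 4 female MRL/lpr mice injected daily into the peritoneum with DNase I, an enzyme that digests extracellular DNA, from week 17. All mice were 21 weeks old and each gave 1 library. The Ctr mice differed from both MRL/lpr groups in strain and in disease, so these cannot be told apart in any comparison with Ctr.

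Principal cells of the collecting duct express vasopressin receptors, whose signal through cyclic AMP moves aquaporin-2 to the urinary face of the cell and raises transcription of its gene. Water then leaves the cell on the blood side through aquaporin-3 and aquaporin-4. The same cells take up sodium through ENaC, which aldosterone controls, and which needs its alpha, beta and gamma subunits for full activity. Intercalated cells handle acid and base: type A cells secrete protons with a vacuolar proton pump and return bicarbonate to the blood through the exchanger encoded by Slc4a1, while type B and related cells secrete bicarbonate through pendrin.

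These promoters are shown because they belong to the member with the highest level (Aqp2) and to the intercalated cell members that passed the test below (Slc26a4 and Atp6v1g3). Each run is the 250 bases before the RefSeq gene start, in build GRCm38.p6, read 5′ to 3′ on the strand of the gene. Capitals mark matches to the motifs searched.
Aqp2: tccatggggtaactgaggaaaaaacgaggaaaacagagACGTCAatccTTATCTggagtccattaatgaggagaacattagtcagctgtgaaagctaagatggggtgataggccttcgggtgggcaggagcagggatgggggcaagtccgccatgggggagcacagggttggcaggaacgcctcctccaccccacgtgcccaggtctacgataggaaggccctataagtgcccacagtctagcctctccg
Slc26a4: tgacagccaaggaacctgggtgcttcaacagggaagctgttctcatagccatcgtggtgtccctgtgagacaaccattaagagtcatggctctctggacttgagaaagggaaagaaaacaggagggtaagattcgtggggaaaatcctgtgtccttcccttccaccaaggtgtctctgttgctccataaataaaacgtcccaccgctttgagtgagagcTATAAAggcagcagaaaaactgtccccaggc
Atp6v1g3: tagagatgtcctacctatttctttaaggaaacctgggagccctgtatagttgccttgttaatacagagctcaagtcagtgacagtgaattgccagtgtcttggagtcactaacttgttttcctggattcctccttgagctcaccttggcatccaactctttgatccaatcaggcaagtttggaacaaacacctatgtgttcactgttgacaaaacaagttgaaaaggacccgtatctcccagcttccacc
The Aqp2 run lies on the plus strand at chr15:99578806-99579055, the Slc26a4 run on the minus strand at chr12:31559985-31560234 and the Atp6v1g3 run on the plus strand at chr1:138273488-138273737. All motifs were searched on both strands, and shares are of 32851 mouse promoters of the same length. The core of the cyclic AMP response element was ACGTCA, which 6.47% of promoters held. The motif of GATA factors was AGATAA, held by 9.99%. The motif of forkhead factors was TAAACA, held by 12.03%. The TATA box was TATAAA, held by 12.4%. The Aqp2 run held the cyclic AMP motif from position -212 and the reverse of the GATA motif from position -202, counted from the gene start. The Slc26a4 run held the TATA box from position -31, and the Atp6v1g3 run held none of these letters. RefSeq entries were matched for 7 of the 10 genes. Among the others matched, Aqp3 held the TATA box and Avpr2 held the forkhead and TATA motifs in reverse, whereas Scnn1b and Scnn1g held none. These matches describe the C57BL/6J reference sequence.

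Each library held 33469858 to 38460873 counts, and the members drew 646 to 28364 counts in a kidney, so counting error was small beside the spread between mice. Summed leukocyte markers (15 genes in the table) were 484 to 593 CPM in Ctr, 5744 to 9460 in Lpr and 3991 to 6391 in DNase, where CPM is counts scaled to library size, with library sizes adjusted by TMM. Their part in the member levels was not tested. Defining genes of other kidney segments were well detected in every library, with at least 69039 counts of Slc34a1 (proximal tubule) and 112909 of Umod (thick ascending limb). In bulk kidney, fewer cells of a type and less RNA per cell cannot be told apart. Lpr replicate 3 stood apart from the other libraries: its log2 level relative to the mean of all kidneys fell by 0.39 for each doubling of gene length, against slopes of -0.04 to 0.08 in the other 10 kidneys. For the members and lists that it moved most, values without it stand beside those with it.

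At an adjusted p under 0.05, pendrin, Atp6v1g3 and the beta subunit of ENaC were the members that fell against Ctr in at least 1 MRL/lpr group. Slc4a1 had the largest log2 fold change in Lpr against Ctr, -1.20, and narrowly did not pass (adjusted p = 0.0528, edgeR). Aqp2, Aqp3 and Avpr2 differed from Ctr by less than the SD between mice. Slc26a4, Slc4a1 and Scnn1b were each lower in all 8 MRL/lpr kidneys than in any of the 3 Ctr kidneys, a pattern that 7.7% of 15871 genes tested in both comparisons with Ctr also showed. In the edgeR quasi-likelihood test, Slc26a4 fell in Lpr against Ctr to 1.83-fold below Ctr. Slc26a4, Atp6v1g3 and Scnn1b fell in DNase against Ctr, by factors of 1.54, 1.58 and 1.37. No member passed an adjusted p under 0.05 in DNase against Lpr. The 95% intervals of Aqp2, Aqp4 and Slc4a1 in that comparison reached beyond a 2-fold change.

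In Lpr against Ctr, 1 of the 10 members passed an adjusted p under 0.05, beside 2.92% of 16074 genes tested that passed with a lower level. Without overlap between the groups, 3 members were lower, beside 11.2% of genes. The log2 fold change was negative for 9 members, with a median of -0.45, where 47.5% of all genes tested were negative and their median was 0.03. In DNase against Ctr, 3 members passed, all lower, beside 8.61% of 16100 genes, and 5 members were lower without overlap, beside 13.9%. The median log2 fold change of the members was -0.44, against 0.00 over all genes, and all 10 were negative. Both comparisons use the same 3 Ctr kidneys. With a higher level, 1169 of 16074 genes passed in Lpr against Ctr and 2107 of 16100 in DNase against Ctr. The rule of the study also requires an absolute log2 fold change above 2. Here it was applied to the edgeR results, whereas the study used DESeq2. With it no member passed in either comparison, beside 1.13% of genes lower in Lpr and 1.45% lower in DNase. The study itself reported more genes lower in Lpr than this gave. In DNase against Lpr, 0 members and 0% of 15832 genes passed in edgeR, although 886 genes had an unadjusted p under 0.05 and DESeq2 called 24. No member was among those 886. The median log2 fold change of the members in that comparison was 0.08, with 4 of 10 negative, beside -0.02 over all genes.

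**Figure D1:**
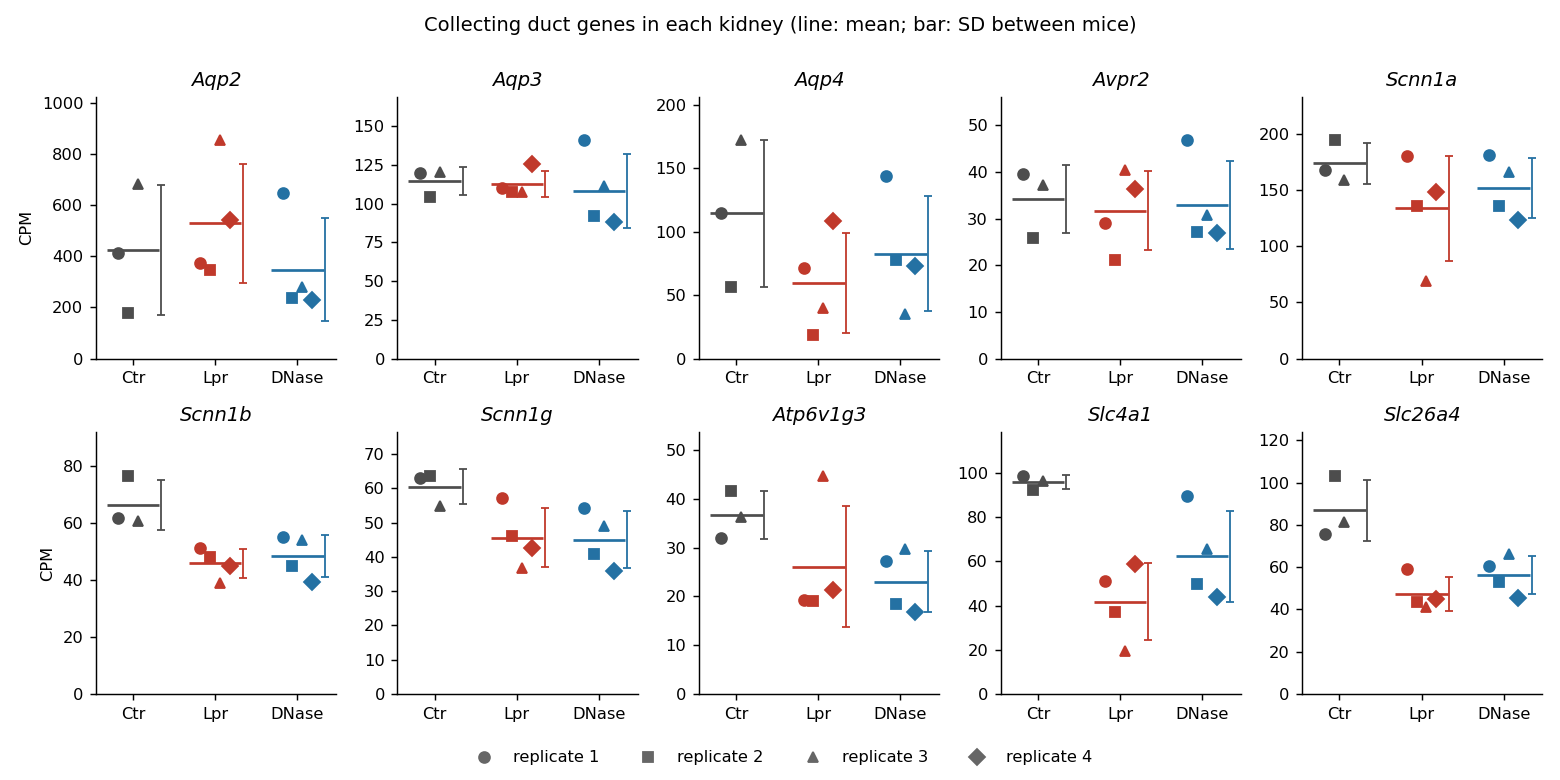
Level of each of the 10 genes in each kidney, in CPM (vertical axes from 0, with a separate scale for each gene), for Ctr, Lpr and DNase. Marker shapes give the replicate, lines the group mean and bars the SD between mice. For Slc26a4, the 8 MRL/lpr kidneys lie between 41.1 and 66.4 CPM and the 3 Ctr kidneys between 75.9 and 103 CPM, whereas the Aqp2 groups overlap widely.

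Aqp2 (chr15:99579055-99584547, plus strand), the vasopressin-regulated water channel of the urinary face, read 414, 176 and 683 CPM in Ctr replicates 1 to 3. It read 375, 347, 853 and 542 CPM in Lpr replicates 1 to 4, and 648, 236, 278 and 228 CPM in DNase replicates 1 to 4. The groups overlapped, and Ctr alone spanned a range of 3.88-fold from its lowest to its highest kidney. The log2 fold change was 0.32 in Lpr against Ctr (95% interval -0.74 to 1.38), -0.60 in DNase against Lpr (-1.50 to 0.31) and -0.29 in DNase against Ctr (-1.36 to 0.78). Without Lpr replicate 3 the first difference was -0.0065 and the second -0.27, and without DNase replicate 1 the second was -1.09. The interval held a 2-fold rise in Lpr against Ctr and a 2-fold fall in both comparisons of DNase.

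Aqp3 (chr4:41092722-41098183, minus strand), a water and glycerol channel of the blood side, had the narrowest range of the members. It read 119.6, 104 and 120.3 CPM in Ctr, 110.3, 108, 108 and 126 CPM in Lpr, and 141, 92.2, 111 and 88.4 CPM in DNase, in replicate order. The highest and the lowest of the 11 kidneys were both DNase kidneys, 1.59-fold apart. Its log2 fold change was -0.02 in Lpr against Ctr (95% interval -0.35 to 0.31), -0.05 in DNase against Lpr (-0.43 to 0.33) and -0.08 in DNase against Ctr (-0.43 to 0.27). These intervals did not reach 0.5 on the log2 scale in either direction.

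Aqp4, the other water channel of the blood side, at chr18:15389496-15410982 on the minus strand, had the widest range of all members, 9.24-fold over the 11 kidneys. It read 115, 56.2 and 172 CPM in Ctr, 71.3, 18.6, 40.1 and 109 CPM in Lpr, and 144, 78.1, 35.4 and 73.1 CPM in DNase. All 3 groups overlapped, and Lpr replicate 2 was the lowest kidney. The log2 fold change of -0.94 in Lpr against Ctr had a 95% interval of -2.22 to 0.33 and did not pass (adjusted p = 0.397, edgeR). It was -0.79 without Lpr replicate 3 and -0.52 without Ctr replicate 3. For DNase against Ctr the log2 fold change was -0.47 with all kidneys, -0.052 without Ctr replicate 3 and -0.88 without DNase replicate 1.

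Avpr2 (chrX:73892102-73895502, plus strand), the receptor through which vasopressin acts on these cells, read 39.5, 26.0 and 37.3 CPM in Ctr. It read 29.1, 21.1, 40.5 and 36.3 CPM in Lpr and 46.8, 27.2, 30.8 and 27.0 CPM in DNase. The groups overlapped, and the log2 fold changes were -0.11, 0.06 and -0.06 in Lpr against Ctr, DNase against Lpr and DNase against Ctr, with 95% intervals that together spanned -0.69 to 0.62. The first of these was -0.25 without Lpr replicate 3. An exon of Avpr2 shares 1295 bases with an exon of Arhgap4 on the opposite strand, and whether reads were counted by strand is not given in the sources used here, so the Avpr2 level is uncertain.

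Aqp2 and Aqp4 shared their order among Ctr mice with the summed levels of some gene lists. A list of 10 medullary tonicity genes, which cells switch on or keep high in salty surroundings, summed to 1748, 1025 and 2671 CPM in Ctr replicates 1 to 3, the same order as Aqp2 and Aqp4. A list of 11 urothelium markers, which belong to the lining of the renal pelvis, summed to 163, 21.4 and 244 CPM in the same kidneys, again in that order. Adipose markers had it too, at 542, 67.5 and 1117 CPM. So did the other principal cell genes (2926, 2895 and 3315 CPM) and the vasopressin pathway genes (2340, 2302 and 2381 CPM). Aqp3 also had this order. An order of only 3 kidneys can be shared by chance. Among Lpr kidneys the urothelium sum was 13.8, 50.04, 144 and 178 CPM and the tonicity sum 1169, 1320.0, 1541 and 1587 CPM, while in DNase they were 69.3, 56.1, 12.3 and 37.8 CPM and 1715, 1100.1, 1008 and 1088 CPM. Both sums were lowest in Lpr replicate 1 and highest in Lpr replicate 4, whereas Aqp2 was highest in replicate 3 and Aqp4 lowest in replicate 2. DNase replicate 1, the highest DNase kidney for Aqp2 and Aqp4, was also the highest for both sums, and DNase replicate 3, the lowest for Aqp4, was the lowest for both. All 11 urothelium markers were tested and none passed in any comparison in edgeR. At an unadjusted p under 0.05 there were 0 in Lpr against Ctr, 1 in DNase against Lpr and 6 in DNase against Ctr, and their median log2 fold change was -0.51, -0.87 and -1.65. Upk1b and Upk3a, plaque proteins of the urothelium, ranged from 0.563 to 23.6 and from 0.732 to 30.7 CPM, and Krt5, a keratin of its basal cells, from 0.628 to 14.4 CPM. The part of tissue makeup in the Aqp2 and Aqp4 levels was not tested.

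**Figure D2:**
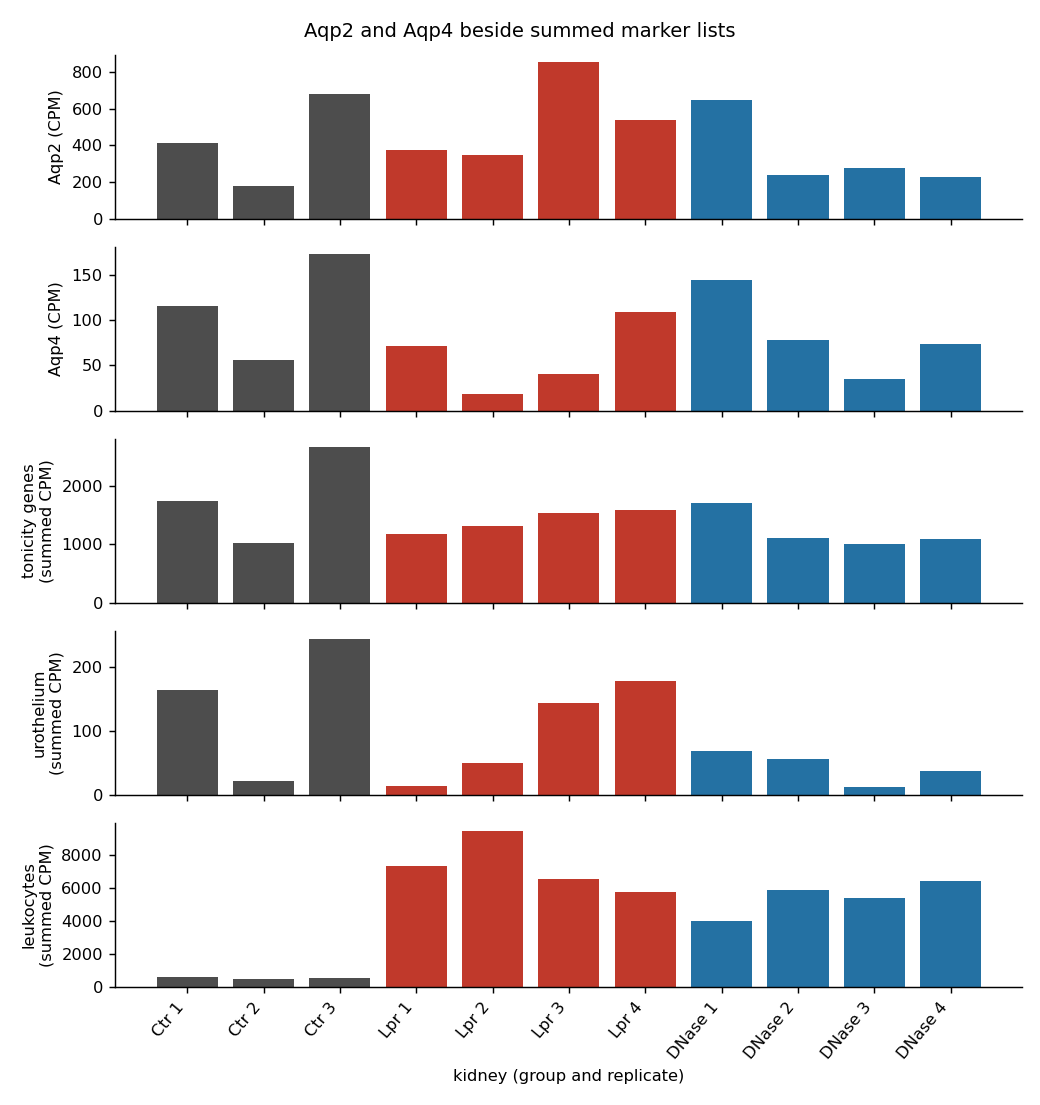
Bars give, for each of the 11 kidneys, the level of Aqp2 and Aqp4 and the summed level of the tonicity, urothelium and leukocyte lists, all in CPM from 0. Within Ctr, Aqp2, Aqp4, the tonicity sum and the urothelium sum share one order, lowest in replicate 2 and highest in replicate 3, and the leukocyte sum separates Ctr (484 to 593 CPM) from the MRL/lpr kidneys (3991 CPM and above).

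Among the ENaC genes, Scnn1b passed in DNase against Ctr, and Scnn1a and Scnn1g passed in no comparison. Scnn1a (chr6:125320659-125344943, plus strand), the alpha subunit, read 168, 194 and 159 CPM in Ctr. It read 181, 136, 69.2 and 149 CPM in Lpr and 181, 135, 166 and 123 CPM in DNase. Lpr replicate 3 had the lowest level, and each MRL/lpr group overlapped with Ctr. The log2 fold change was -0.38 in Lpr against Ctr (95% interval -1.04 to 0.29), 0.19 in DNase against Lpr (-0.41 to 0.79) and -0.19 in DNase against Ctr (-0.50 to 0.12). The first was -0.16 and the second -0.033 without Lpr replicate 3.

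Scnn1b (chr7:121865038-121918514, plus strand), the beta subunit, read 61.7, 76.6 and 60.9 CPM in Ctr, 51.1, 48.2, 39.0 and 45.0 CPM in Lpr, and 55.0, 45.0, 54.2 and 39.5 CPM in DNase. Every MRL/lpr kidney was below every Ctr kidney, the nearest being DNase replicate 1 and Ctr replicate 3. It fell by 0.45 on the log2 scale in DNase against Ctr (SE 0.13, adjusted p = 0.0378, edgeR). In Lpr against Ctr the log2 fold change was -0.53 (SE 0.16), which did not pass (adjusted p = 0.0848, edgeR), and without Lpr replicate 3 it was -0.46 and passed (adjusted p = 0.031, edgeR). In DNase against Lpr the log2 fold change was 0.09 (95% interval -0.26 to 0.43).

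Scnn1g (chr7:121734479-121768475, plus strand), the gamma subunit, lies 96562 bases before Scnn1b on the same strand. It read 63.1, 63.7 and 54.7 CPM in Ctr, 57.1, 46.0, 36.6 and 42.6 CPM in Lpr, and 54.4, 40.7, 49.1 and 36.0 CPM in DNase. The DNase kidneys lay below all Ctr kidneys, by a narrow margin, and Lpr replicate 1 lay within the Ctr range. The log2 fold change was -0.40 in Lpr against Ctr (SE 0.18, adjusted p = 0.248) and -0.42 in DNase against Ctr (SE 0.14, adjusted p = 0.0568), and neither passed in edgeR. In DNase against Lpr it was -0.01 (95% interval -0.42 to 0.41).

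Slc26a4 (chr12:31519827-31559969, minus strand), which encodes pendrin, the chloride and bicarbonate exchanger of bicarbonate-secreting intercalated cells, was the member with the most regular difference. It read 75.9, 103 and 81.5 CPM in Ctr, 59.3, 43.7, 41.1 and 44.9 CPM in Lpr, and 60.7, 52.9, 66.4 and 45.6 CPM in DNase. All MRL/lpr kidneys were below all Ctr kidneys, and the Lpr and DNase ranges overlapped. It fell by 0.87 on the log2 scale in Lpr against Ctr (SE 0.19, adjusted p = 0.0192) and by 0.62 in DNase against Ctr (SE 0.14, adjusted p = 0.0136, both edgeR). The difference of DNase from Lpr was 0.26 (95% interval -0.12 to 0.65). The call in DNase against Ctr held when any 1 of the 7 kidneys was left out (adjusted p 0.00945 to 0.0459, edgeR). That in Lpr against Ctr held without Lpr replicate 1 or 3 and was lost without Ctr replicate 1, 2 or 3 or Lpr replicate 2 or 4, where the edgeR adjusted p was 0.0524 to 0.106 and the log2 fold change -0.74 to -0.96.

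Slc4a1 (chr11:102348824-102366203, minus strand), the bicarbonate exchanger on the blood side of type A cells and also the anion exchanger of red cells, was tight in Ctr at 98.8, 92.4 and 96.6 CPM. It read 51.2, 37.2, 19.4 and 59.0 CPM in Lpr and 89.7, 49.9, 65.7 and 43.9 CPM in DNase. Each MRL/lpr kidney was again below each Ctr kidney, DNase replicate 1 only slightly. In Lpr against Ctr the log2 fold change of -1.20 (SE 0.33) was the largest of the 10 members and did not pass (adjusted p = 0.0528, edgeR). Without Lpr replicate 3, the lowest kidney, it was -0.96 and passed (adjusted p = 0.00631, edgeR), and it also passed without Lpr replicate 4 (adjusted p = 0.0388). With all kidneys it passed in DESeq2 (adjusted p = 0.00644) and in edgeR with all 3 groups in one fit (0.026), with the length offset (0.0212), without the filter (0.0357) and with DESeq2 size factors (0.0499). It did not pass in limma on log2(FPKM + 1) (0.0745) or log2(FPKM + 0.1) (0.0829). Against Ctr, the log2 fold change of DNase was -0.62 (SE 0.21, adjusted p = 0.0652, edgeR), and without DNase replicate 1 it was -0.85 and passed (adjusted p = 0.00336). The difference of DNase from Lpr was 0.59 (95% interval -0.17 to 1.35), 0.34 without Lpr replicate 3 and 0.35 without DNase replicate 1.

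Red cell markers were read beside Slc4a1, since red cells use the same gene. The 20 listed markers summed to 1210, 631 and 598 CPM in Ctr, 1680, 1193, 2854 and 791 CPM in Lpr, and 1058, 686, 1279 and 953 CPM in DNase. The 3 groups overlapped, and the Lpr sums were 791 to 1680 CPM without replicate 3. Of 12 markers tested, 3 passed with a lower level in each comparison with Ctr (Hba-a2, Klf1 and Tspan33), and Hba-a1 passed with a higher level in DNase against Ctr. Over all genes, 2.92% passed lower in Lpr and 8.61% in DNase, and 2107 of 16100 passed higher in DNase. Hba-a1 also stood higher in Lpr against Ctr, at 1.82 (adjusted p = 0.0549, edgeR). Without Lpr replicate 3 it was 1.37 and passed (adjusted p = 0.0491, edgeR). Hba-a1 and Hba-a2 are near-identical copies, so their separate counts are uncertain. Hbb-bs, an adult beta globin, read 274 to 604 CPM in Ctr, 330.1 to 1326 in Lpr and 308 to 507 in DNase, and Alas2, the heme synthesis enzyme of erythroid cells, 13.3 to 44.8, 20.6 to 44.6 and 17.3 to 30.7 CPM. The erythroid factor Gata1 had 0 to 2 counts in a kidney. The part of red cell RNA in the Slc4a1 level was not tested.

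Atp6v1g3 (chr1:138273738-138289462, plus strand), the kidney form of the G subunit in the outer sector of the proton pump, read 31.9, 41.7 and 36.4 CPM in Ctr. It read 19.3, 19.0, 44.8 and 21.3 CPM in Lpr and 27.2, 18.5, 29.7 and 16.8 CPM in DNase. All DNase kidneys and 3 of the 4 Lpr kidneys were below all Ctr kidneys, and Lpr replicate 3 was the highest of the 11. It fell by 0.66 on the log2 scale in DNase against Ctr (SE 0.20, adjusted p = 0.0416, edgeR). In Lpr against Ctr the log2 fold change was -0.49 (SE 0.32, adjusted p = 0.443) with all kidneys, and -0.88 (adjusted p = 0.00317) without Lpr replicate 3, both in edgeR. The gene is 1887 bases long. Aqp2 (1416 bases) and Avpr2 (1938) were also highest in that library among Lpr kidneys, whereas Aqp3 (1763) was not. The 5 members lowest there among Lpr kidneys are 2697 (Scnn1b) to 4790 bases long (Scnn1a), while Aqp4, at 6007 bases, was not lowest there. Of DNase from Lpr the log2 difference was -0.17 (95% interval -0.88 to 0.54). The calls of Scnn1b and Atp6v1g3 in DNase against Ctr were lost without Ctr replicate 1, 2 or 3 or DNase replicate 2 or 4 (adjusted p 0.052 to 0.131, edgeR) and held without DNase replicate 1 or 3. They were also lost with all 3 groups in one edgeR fit (adjusted p = 0.0862 for Scnn1b and 0.234 for Atp6v1g3) and with limma on log2(FPKM + 1) (0.0984 and 0.0736), where Slc26a4 passed in both comparisons with Ctr.

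**Figure D3:**
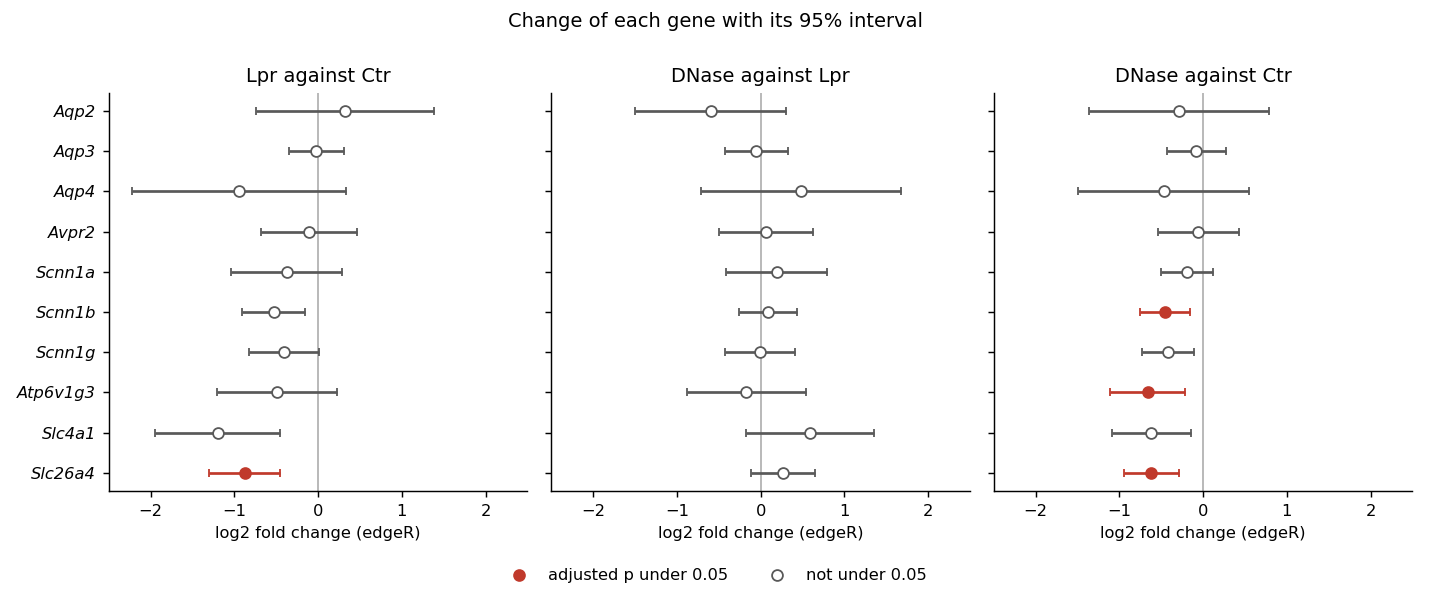
Log2 fold change of each gene in each comparison (edgeR), with bars for the 95% interval, where filled red points have an adjusted p under 0.05. Slc26a4 is filled in Lpr against Ctr, Slc26a4, Atp6v1g3 and Scnn1b are filled in DNase against Ctr, and in DNase against Lpr all 10 intervals cross 0.

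**Figure D4:**
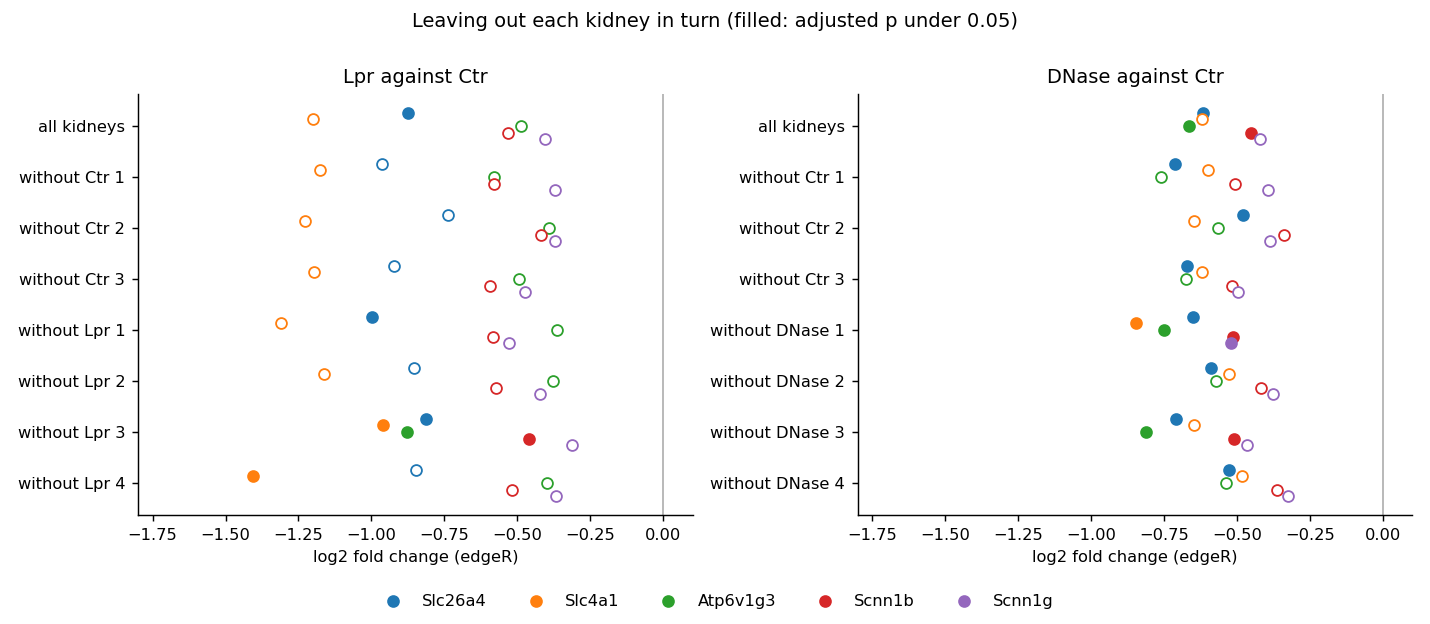
Log2 fold change (edgeR) of Slc26a4, Slc4a1, Atp6v1g3, Scnn1b and Scnn1g with all kidneys and with each kidney left out in turn, where filled points have an adjusted p under 0.05. Without Lpr replicate 3, 4 of the 5 genes are filled in Lpr against Ctr (Scnn1g at -0.31 is not), and without DNase replicate 1 all 5 are filled in DNase against Ctr.

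Levels were put in order by FPKM, which divides by gene length as well as library size and so allows genes of different length to be compared. In Ctr the order was Aqp2 (292 ± 179 FPKM, SD, n = 3), Aqp3 (62.9 ± 6.65), Scnn1a (35.0 ± 2.71) and Scnn1b (23.7 ± 2.49), each without overlap with the next. The other 6 genes followed between 17.1 (Avpr2) and 20.4 FPKM (Slc4a1), with neighbours that overlapped. In Lpr, Slc4a1 was in the last place at 9.22 ± 4.05 FPKM (SD, n = 4), below Aqp4 (9.93 ± 6.80) and Slc26a4 (10.8 ± 1.99), and in DNase Atp6v1g3 was last at 12.7 ± 3.60 FPKM. The last place of Slc4a1 in Lpr depended on replicate 3, the library whose levels fell with gene length. There Slc4a1 read 3.94 FPKM and Atp6v1g3 21.9 FPKM. In Lpr replicates 1, 2 and 4, Slc4a1 read 11.1, 8.43 and 13.4 FPKM and Atp6v1g3 10.1, 10.4 and 11.6 FPKM. Aqp2, Aqp3 and Scnn1a kept the first 3 places in each group. From Scnn1b down in Lpr and DNase, and after it in Ctr, neighbours overlapped, as did Scnn1a and Scnn1b in Lpr.

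The kidneys also differed in which members they held at high or low levels. DNase replicate 1 was the highest DNase kidney for 8 of the 10 genes, and DNase replicate 4 the lowest for 9. In Ctr, replicate 2 was lowest for Aqp2, Aqp3, Aqp4, Avpr2 and Slc4a1 and highest for Scnn1a, Scnn1b, Scnn1g, Atp6v1g3 and Slc26a4. In Lpr, replicate 3 was highest for Aqp2, Avpr2 and Atp6v1g3 and lowest for the ENaC genes, Slc4a1 and Slc26a4.

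Ratios between members within a kidney do not depend on library scaling, and 9 were compared as log2 ratios of FPKM + 0.1. The mean of the 7 principal cell members over that of the 3 intercalated cell members was 1.05, 0.45 and 1.10 in Ctr, 1.48, 1.31, 1.49 and 1.61 in Lpr, and 1.45, 1.29, 0.88 and 1.36 in DNase. The Lpr kidneys lay above all Ctr kidneys, with means of 1.47 ± 0.12 (SD, n = 4) and 0.87 ± 0.36 (SD, n = 3). The difference of 0.61 had a two-sided exact permutation p of 0.0571, the smallest that 3 against 4 kidneys allow, and 0.386 after adjustment over the 27 tests of 9 ratios in 3 comparisons. None of the 27 passed after adjustment. The ratio rests on the members alone. In Lpr against Ctr, the 18 other principal and 24 other intercalated cell genes had median log2 fold changes of -0.33 and -0.41.

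The alpha subunit of ENaC stood higher over the other subunits in each DNase kidney, and in 3 of the 4 Lpr kidneys, than in any Ctr kidney. The log2 ratio of Scnn1a to the mean of Scnn1b and Scnn1g was 0.69, 0.73 and 0.72 in Ctr and 0.98, 0.92, 0.95 and 0.97 in DNase, with no overlap and a difference of 0.24 (exact permutation p = 0.0571, adjusted p = 0.386). In Lpr it was 1.00, 0.78, 0.13 and 1.02, so that 3 of the 4 Lpr kidneys also lay above every Ctr kidney. The difference of Lpr from Ctr was 0.02 with all kidneys and 0.22 without Lpr replicate 3. Scnn1b and Scnn1g kept nearly the same ratio to each other, with group means of 0.31 ± 0.15 in Ctr (SD, n = 3), 0.20 ± 0.12 in Lpr and 0.29 ± 0.06 in DNase (SD, n = 4 each).

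The receptor stood lower relative to the water channel in each Lpr kidney than in 3 of the 4 DNase kidneys. The log2 ratio of Avpr2 to Aqp2 was -4.13, -4.48, -4.84 and -4.35 in Lpr and -4.24, -3.56, -3.62 and -3.52 in DNase, and only DNase replicate 1 overlapped with Lpr. The difference of 0.71 had an exact permutation p of 0.0571, where 4 against 4 kidneys allow 0.0286, and 0.386 after adjustment. The pendrin to Slc4a1 ratio, which sets bicarbonate-secreting against acid-secreting cells, was -0.09 ± 0.28 in Ctr (SD, n = 3), 0.34 ± 0.60 in Lpr and -0.04 ± 0.31 in DNase (SD, n = 4 each), without a difference beyond that spread. The Lpr kidneys read 0.28, 0.29, 1.13 and -0.33, and their difference from Ctr was 0.43 with all kidneys and 0.17 without Lpr replicate 3. For Atp6v1g3 against Atp6v1b1, another subunit of the same pump sector, DNase was 0.41 lower than Ctr (exact permutation p = 0.0571, adjusted p = 0.386). Lpr replicates 1, 2 and 4 (-2.48, -2.18 and -2.30) also lay below every Ctr kidney (-2.10 to -1.70), and replicate 3 stood at -0.70. The difference of Lpr from Ctr was -0.02 with all kidneys and -0.43 without replicate 3.

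**Figure D5:**
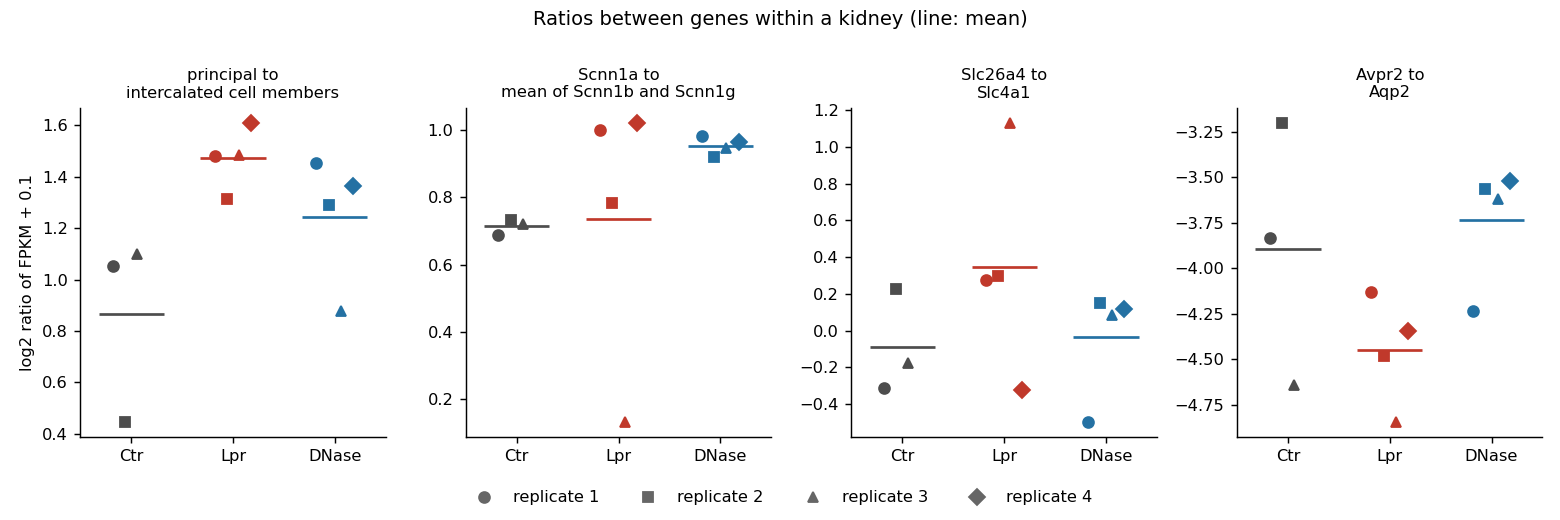
Log2 ratios of FPKM + 0.1 in each kidney for principal over intercalated cell members, Scnn1a over the other ENaC subunits, Slc26a4 over Slc4a1 and Avpr2 over Aqp2, with lines for the group means. All Lpr kidneys lie above Ctr in the first, all DNase kidneys (0.92 to 0.98) lie above Ctr (0.69 to 0.73) in the second, and the groups overlap in both others.

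For 4 members the genes with the most alike pattern over the 11 kidneys were found as the smallest root mean square difference of centred log2 CPM among 15587 genes. Scnn1g was closest to Pheta1 (0.10), Scnn1b (0.11) and Arhgef16 (0.12), where the median gene differed by 0.43. Slc26a4 was closest to Tmem52b (0.15), Cfap69 (0.15) and Tmem38a (0.15), against a median of 0.52. Aqp2 was closest to Tmem158 (0.21), Cdkn2b (0.27) and Fam241a (0.27), against 0.78, and Atp6v1g3 to Zmat5 (0.20), Cldn5 (0.20) and Ccl27a (0.22), against 0.60. These libraries share their depth and scaling, so the differences are descriptive.

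Of 24 other intercalated cell genes tested, 2 passed in Lpr against Ctr, both lower, beside the 2.92% of all genes given above. A negative log2 fold change was found for 22, and the median was -0.41. The 12 proximal tubule markers had a like median of -0.42, with 10 negative. Leaving out Lpr replicate 3 gave medians of -0.39 and -0.28, with 3 intercalated cell genes passing lower, 3 proximal tubule markers lower and 2 higher, beside 1076 of 15855 genes lower and 1748 higher. Rhcg, an ammonia channel through which acid is excreted, fell by 1.12 on the log2 scale (SE 0.17, adjusted p = 0.0044, edgeR), from 121 to 149 CPM in Ctr to 49.9 to 73.7 CPM in Lpr. Slc4a9, an anion exchanger of type B cells, fell by 1.07 (SE 0.26, adjusted p = 0.0337, edgeR). Both also fell in DNase against Ctr, as did Oxgr1, the oxoglutarate receptor, by 0.65, whereas Slc26a7, a chloride exchanger, rose by 1.05 (adjusted p = 0.0268, edgeR). These calls stand beside 1386 of 16100 genes lower and 2107 higher. Oxgr1, Slc26a7, Foxi1, Pvalb, the genes called in DNase against Ctr or without Lpr replicate 3 in the next paragraphs and the erythroid genes called above were named after their values were seen. Foxi1, the transcription factor that defines intercalated cells, did not pass in either comparison, with log2 fold changes of -0.35 and -0.07.

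Of 18 other principal cell genes, 0 passed in Lpr against Ctr in edgeR (3 at an unadjusted p under 0.05), with 16 negative and a median log2 fold change of -0.33. The lowest p values were those of Kcne1, a potassium channel subunit (log2 fold change -0.64, adjusted p = 0.0881, edgeR), and Apela, a peptide hormone (log2 fold change -0.81, adjusted p = 0.136, edgeR). Apela was at -1.08 and passed without Lpr replicate 3 (adjusted p = 0.0106, edgeR). In DNase against Ctr, Kcne1, Apela and Npnt fell and St6gal1 rose, with 14 of 18 negative and a median of -0.29. Of all 16100 genes tested there, 1386 passed lower and 2107 higher. None of the other principal or intercalated cell genes passed in DNase against Lpr in edgeR, where 1 and 2 had an unadjusted p under 0.05 and the medians were 0.04 and 0.24.

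Other subunits of the proton pump lay on both sides of no change. Of 23 tested, Tcirg1, a subunit known from osteoclasts and immune cells, rose by 1.27 on the log2 scale in Lpr against Ctr (adjusted p = 0.0301, edgeR) and Atp6v0c, the ring subunit, fell by 0.99 (adjusted p = 0.0463, edgeR). Over all 16074 genes, 1169 passed higher and 470 lower in that comparison. The median of the subunits was 0.08, with 13 positive and 10 negative. Atp6v0c has pseudogene copies that could share its reads. Atp6v1b1, the partner subunit of intercalated cells, had a log2 fold change of -0.54 and did not pass (adjusted p = 0.119, edgeR). Tcirg1 and Atp6v0e2 rose and Atp6v0c fell in DNase against Ctr, beside 2107 of 16100 genes passing higher and 1386 lower. With Lpr replicate 3 left out, 3 subunits passed higher and 1 lower in Lpr against Ctr, and the median was -0.05. Of all 15855 genes tested there, 1748 passed higher and 1076 lower.

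In the vasopressin pathway, 1 of 23 genes tested passed in Lpr against Ctr, with a higher level, beside 1169 of 16074 genes passing higher. This was Ptger4, a prostaglandin E receptor, which rose by 1.14 on the log2 scale (adjusted p = 0.0168, edgeR). It read 3.96 to 5.18 CPM in Ctr and 8.51 to 12.9 CPM in Lpr, and the part of leukocytes in its level was not tested. Vamp3, a vesicle fusion protein, had the next lowest p (log2 fold change 0.51, adjusted p = 0.208, edgeR). The median was 0.02, and without Lpr replicate 3 it was 0.09. There the phosphodiesterase Pde4d also passed with a higher level, beside 1748 of 15855 genes. Ptger4 and Creb1, the cyclic AMP response factor, rose in DNase against Ctr, beside 2107 of 16100 genes passing higher.

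Among 20 regulators of aldosterone action and ENaC, 0 passed in Lpr against Ctr in edgeR (5 at an unadjusted p under 0.05). The lowest p values were those of Tsc22d3 (log2 fold change 1.41, adjusted p = 0.052, edgeR) and Fkbp5 (log2 fold change 0.97, adjusted p = 0.0962, edgeR), both classical steroid-induced genes. Without Lpr replicate 3, Fkbp5 passed at 1.11 (adjusted p = 0.0394), Klk1 passed with a lower level, Tsc22d3 did not pass at 1.27 (adjusted p = 0.0614, edgeR), and the median over the 20 genes was 0.13 against -0.05. That fit called 1748 of 15855 genes higher and 1076 lower. In DNase against Lpr, Tsc22d3 and Fkbp5 stood at -1.08 and -0.87 and did not pass (adjusted p = 0.82 for each, edgeR). Sgk1 stood at -1.09 and did not pass either (adjusted p = 0.82, edgeR). An unadjusted p under 0.05 was found for 4 of the 20 genes, beside 886 of 15832 over all genes. Without Lpr replicate 3 it was found for 8 of the 20, beside 1618 of 16006. In DNase against Ctr, the kinase Sgk1, which lengthens the stay of ENaC at the cell surface, fell by 0.74, the proteases Furin, St14 and Klk1 fell by 0.42, 0.48 and 0.78, and the glucocorticoid receptor Nr3c1 rose by 0.41 (adjusted p 0.0038 to 0.0483, edgeR). Over all 16100 genes, 1386 passed lower and 2107 higher there.

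Few genes of the remaining families passed in Lpr against Ctr. Of 6 other aquaporins tested, 0 passed in edgeR (1 at an unadjusted p under 0.05), and the lowest p values were those of Aqp11 (log2 fold change -0.44) and Aqp7 (-0.29), of which Aqp7 fell in DNase against Ctr by 0.43 (adjusted p = 0.00747, edgeR). Of 13 other anion exchangers, Slc4a9 alone passed, and Slc26a1, a sulfate exchanger, had the next lowest p (log2 fold change 0.73, adjusted p = 0.181, edgeR), passed without Lpr replicate 3 at 0.94 (adjusted p = 0.00278, edgeR) and rose in DNase against Ctr by 0.91, where Slc26a7 also rose and Slc4a9 and Slc26a6 fell. None of the 10 tonicity genes passed in edgeR (1 at an unadjusted p under 0.05), and the lowest p values were those of Slc14a2, the urea transporter of the inner medulla (log2 fold change -1.22, adjusted p = 0.0704), and Akr1b3, aldose reductase (log2 fold change -1.41, adjusted p = 0.437), while Hspa4l, a heat shock protein, fell in DNase against Ctr. Of 9 markers of the distal convoluted and connecting tubule, the segments just before the collecting duct, Pvalb rose and Tmem52b fell in Lpr against Ctr, with a median of -0.72. Over all 16074 genes, 1169 passed higher and 470 lower there. Without Lpr replicate 3, Pvalb did not pass (1.17, adjusted p = 0.0559, edgeR), 4 of the 9 passed with a lower level and the median was -0.65. That fit called 1076 of 15855 genes lower and 1748 higher. In DNase against Ctr, Pvalb rose again and Slc12a3, Trpm6, Trpv5, Klk1 and Tmem52b fell. For this and the other families, DNase against Ctr had 2107 of 16100 genes passing higher and 1386 lower.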

How the data were processed

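Kidney RNA of 3 Ctr, 4 Lpr and 4 DNase mice was sequenced as paired 100 bp reads. The authors deposited raw counts per gene and FPKM (fragments scaled to gene length and library size). The submitters' notes name fastp, HTSeq, DESeq2, R 3.2.0 and build mm10. The study's methods name HTSeq for placing reads on genes, and a separate aligner, the annotation and the strand setting are not given in the sources used here. All sample columns were used.

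Counts were tested with edgeR 4.0.16 (R 4.3.3; filterByExpr, TMM, quasi-likelihood test) on each pair of groups alone, with Benjamini-Hochberg adjustment over all genes tested. A gene passed at an adjusted p under 0.05. The SE is the absolute log2 fold change over the square root of F, and intervals are 95%. The CPM levels used TMM over all 11 libraries. Centred log2 CPM used a prior count of 2. Ratios were tested with two-sided exact permutation tests (scipy 1.17.1). Alternatives were DESeq2 1.42.0, its size factors, no filter, 1 fit of all groups, a replicate block, limma 3.58.1 on log2(FPKM + 1) and log2(FPKM + 0.1) with mean FPKM of at least 0.5, a gene length offset, the study's call rule, a pseudocount of 1 in the ratios and leaving out each kidney. The scripts were tested on simulated data.

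The members and gene lists were chosen with earlier results of these data known. Named genes were the members, the 2 genes of lowest p in Lpr against Ctr from each list that is no marker list, 7 defining red cell and urothelium genes (1 is not reported here), and the 3 nearest genes of 4 members, and others were named after their values were seen. Listed genes absent under that symbol were Atp6v1e2, Avpr1b and Ighm. Marker lists for endothelial and stromal cells and fat gave 0 genes passing in edgeR. At an unadjusted p under 0.05 there were 2 and 0 in Lpr against Ctr, 4 and 1 in DNase against Lpr and 2 and 2 in DNase against Ctr, where the adipose medians were 0.10, -2.03 and -2.46, with all 6 tested genes negative in the latter pair. Proximal tubule, thick limb, podocyte and leukocyte lists had 1, 0, 0 and 13 genes passing higher and none lower in Lpr against Ctr, with medians of -0.42, -0.03, -0.44 and 3.91. In DNase against Ctr they had 2, 2, 1 and 15 passing higher and 2, 0, 1 and 0 lower. Over all genes, 1169 of 16074 passed higher and 470 lower in Lpr against Ctr. In DNase against Ctr, 2107 of 16100 passed higher and 1386 lower. Gene positions are from GENCODE M21 and promoters from RefSeq. Separate mice gave the replicates.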

Additional observations from a re-analysis of the deposited data

Results flagged for a closer look

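In groups of 4 kidneys, Dixon's ratio of the gap at one end to the whole range was computed for the members on the log2 CPM scale and for the ratios, over 20 and 18 groups, and values above the 95% critical value were kept. Chance gives about 1 in 20. Aqp3 in Lpr replicate 4 lay above the others (126 CPM, ratio 0.848), and Atp6v1g3 in Lpr replicate 3 lay above the others (44.8 CPM, ratio 0.867).

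For ratios between genes, DNase replicate 1 lay below the other DNase kidneys for Slc26a4 to Slc4a1 (log2 ratio -0.50, Dixon's ratio 0.895), Aqp3 to Aqp2 (-2.52, 0.950), Avpr2 to Aqp2 (-4.24, 0.858) and Scnn1b to Scnn1g (0.20, 0.912). Lpr replicate 1 lay below the others for Scnn1b to Scnn1g (0.02, 0.905). Lpr replicate 3 lay above the others for Atp6v1g3 to Atp6v1b1 (-0.70, 0.831).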

How the results depend on the processing

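The number of members that passed in Lpr against Ctr, 1 as reported, was 3 with DESeq2, 2 with its size factors, 2 without the filter on low counts, 3 with all 3 groups in one fit, 2 with the gene length offset and 0 under the study's call rule. Leaving out 1 kidney gave 0 to 4, with 4 (Atp6v1g3, Scnn1b, Slc26a4 and Slc4a1) without Lpr replicate 3 and 0 without Ctr replicate 1, 2 or 3 or Lpr replicate 2. In DNase against Ctr, 3 as reported, it was 5 with DESeq2, 5 without the filter, 1 with all 3 groups in one fit, 1 with limma at either pseudocount and 0 under the study's call rule, and 1 to 5 with 1 kidney left out (1 without any Ctr kidney or DNase replicate 2 or 4, and 5 without DNase replicate 1). Over all genes, the 1639 calls in Lpr against Ctr became 2460 with DESeq2, 2555 with all 3 groups in one fit, 929 under the study's rule and 852 to 2824 with 1 kidney left out (highest without Lpr replicate 3, and under 1000 without Ctr replicate 1, 2 or 3). DESeq2 called 24 in DNase against Lpr against 0. The 3493 calls in DNase against Ctr became 1889 with all 3 groups in one fit and 967 under the study's rule. The cause of these moves was not tested. In these counts the study's rule was applied to edgeR results, whereas the study used DESeq2. With the replicate number as a block, 2 members passed in Lpr against Ctr (Aqp4 and Slc4a1), 0 in DNase against Ctr, and 1869 genes in DNase against Ctr, with Avpr2 there at 0.016. Same-numbered kidneys deviated with correlations of -0.277 to 0.159, not all above 0.1, and the main fits took no pairing from the numbers. Kidneys with different numbers were not compared in this way, so these values cannot decide whether same-numbered kidneys shared their handling.

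Signs turned for the log2 differences below, none of which passed in its comparison under any setting tried, and the cause was not tested. The ratio differences among them could not have passed at these group sizes. Aqp3 in Lpr against Ctr was 0.016 with limma at either pseudocount and ranged from -0.090 to 0.013 with 1 kidney left out. In DNase against Lpr, Aqp3 was 0.024 with the length offset, and Scnn1g 0.039 and 0.042 with limma at pseudocounts of 1 and 0.1 and 0.0021 with the offset. Avpr2 in DNase against Ctr was 0.025 and 0.026 with limma at those pseudocounts. With 1 kidney left out, Aqp2 ranged from -0.056 to 0.84 in Lpr against Ctr and from -0.78 to 0.23 in DNase against Ctr. Aqp3 ranged from -0.21 to 0.032 in DNase against Lpr and from -0.23 to 0.0070 in DNase against Ctr. Avpr2 ranged from -0.28 to 0.029, -0.16 to 0.19 and -0.27 to 0.058 in Lpr against Ctr, DNase against Lpr and DNase against Ctr. In DNase against Lpr, Scnn1a ranged from -0.033 to 0.37, Scnn1g from -0.12 to 0.12 and Atp6v1g3 from -0.32 to 0.21, the first and last crossing 0 without Lpr replicate 3. The ratio differences that crossed 0 when 1 kidney was left out were, in DNase against Ctr, Slc26a4 to Slc4a1 (-0.059 to 0.21), Aqp3 to Aqp2 (-0.29 to 0.59), Avpr2 to Aqp2 (-0.22 to 0.50), Scnn1b to Scnn1g (-0.10 to 0.047) and Slc4a1 to Atp6v1g3 (-0.10 to 0.14). In Lpr against Ctr they were Aqp3 to Aqp2 (-0.86 to 0.011), Atp6v1g3 to Atp6v1b1 (-0.43 to 0.16, and 0.0019 with a pseudocount of 1) and Scnn1a to the mean of Scnn1b and Scnn1g (-0.075 to 0.22), and in DNase against Lpr Atp6v1g3 to Atp6v1b1 (-0.58 to 0.015).

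With 3 or 4 kidneys a group, the spread between mice sets the precision, and intervals of Aqp2 and Aqp4 include changes above 2-fold. The comparisons with Ctr mix strain with disease. Whole kidney was sequenced, and Lpr replicate 3 differs from the others in how levels follow gene length.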
